A study of Arabidopsis thaliana with 6 samples.

Results

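The Calvin cycle and photorespiration genes described here are 38 Arabidopsis loci out of 36796 in the count table. They were taken from a list of locus identifiers that covers the Rubisco small subunits, Rubisco activase, the enzymes of the Calvin-Benson cycle, the CP12 regulators, 2 carbonic anhydrases and the enzymes of photorespiration, and the rule itself uses no measured value. Of these loci 37 were tested, and *PGLP1* was left out by the filter on low counts with at most 3 counts in any library. RNA was measured in whole rosettes of wild-type plants and of *ref4-3* plants, both in Col-0, with 3 libraries per genotype. The *ref4-3* allele is a semidominant point mutation of *MED5b*, which encodes a subunit of the Mediator tail, and neither genotype received any further treatment. Each library held the pooled shoots of 5 plants that had not bolted, taken at 21 days of age and 6 h after lights on. After 3 days at 4°C in the dark, seeds were moved to a chamber at 22°C with days of 16 h at 150 μE and nights of 8 h. The comparison asks how the transcript levels of these genes differ between the genotypes, step by step along the pathway.

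In the Calvin-Benson cycle, Rubisco joins CO2 to ribulose bisphosphate, the product is reduced to triose phosphate with the ATP and NADPH made by the light reactions, and most of the triose phosphate is used to rebuild the acceptor. When Rubisco takes O2 in place of CO2 it makes phosphoglycolate, which photorespiration recovers as glycerate through the chloroplast, the peroxisome and the mitochondrion. Genes of both pathways are known as some of the most abundant nuclear transcripts of a green leaf, and many of them respond to light, sugars and the circadian clock.

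The part of the promoter that light-regulated genes are known for is shown here for *RBCS2B*, a small subunit gene, and for *RCA*, which encodes Rubisco activase and fell further than any other of the 37 genes. Both stretches are the 250 bases before the annotated start in TAIR10.1, chr5:15382072-15382321 and chr2:16573693-16573942, each on the minus strand. They were read from the RefSeq genome, and capitals mark the G-box (CACGTG) and the I-box (GATAAG, or CTTATC where it lies on the other strand).
RBCS2B: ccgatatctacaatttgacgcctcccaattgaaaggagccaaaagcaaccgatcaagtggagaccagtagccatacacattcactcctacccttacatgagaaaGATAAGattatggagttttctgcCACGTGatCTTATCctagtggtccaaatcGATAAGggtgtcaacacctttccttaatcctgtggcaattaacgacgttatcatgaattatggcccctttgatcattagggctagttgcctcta
RCA: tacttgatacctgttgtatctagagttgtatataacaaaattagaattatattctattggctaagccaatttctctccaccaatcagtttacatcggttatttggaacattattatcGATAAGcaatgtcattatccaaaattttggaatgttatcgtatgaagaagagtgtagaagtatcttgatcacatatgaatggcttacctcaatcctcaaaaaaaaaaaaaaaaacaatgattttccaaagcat
The *RBCS2B* window held 1 G-box between 2 I-boxes and a further I-box downstream, and the *RCA* window held 1 I-box and no G-box. Searched on both strands, the G-box was found in this window of 5 of the 38 genes (13.2%) and of 6.49% of 27443 promoters of the same length, and the I-box in 5 of the 38 genes (13.2%) and 12.3% of promoters. Among the 15 photorespiration genes, *GGT1* and *GLDP1* had a G-box in this window and *GLDP2* an I-box, and among the 23 genes of Rubisco, the Calvin cycle, CP12 and the carbonic anhydrases 3 had a G-box and 4 an I-box. Several annotated starts, those of *RBCS1A* and *RCA* among them, lie far upstream of the start codon, so the 500 bases before the start codon were searched as well. There the G-box was found in 10 of the 38 genes (26.3%) against 9.30% of all genes, and the I-box in 17 of the 38 (44.7%) against 23.5%. *RCA* was 1 of these 10 genes, with a G-box at -251 from the start codon. In this second window the I-box was found in 17 of the 23 genes and in 0 of the 15 photorespiration genes, and the G-box in 9 of the 23 genes and in 1 of the 15, *GLDP1*, so the split by pathway depended on the window searched. The evening element (AAAATATCT), which is known from clock-regulated genes, was found in 1 of the 38 windows (2.63%) and in 4.02% of all genes. These are matches of letters, and binding at them was not measured. Of the 10 genes that fell in *ref4-3*, 3 had a G-box and 5 an I-box before the start codon, and of the 27 that did not pass the test, 7 had a G-box and 12 an I-box. In the window before the annotated start, 2 of the 10 genes (*PRK* and *GGT1*) had a G-box and 1 (*RCA*) an I-box, against 3 and 4 of the 27.

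Total counts per library were 26060005 to 32879414, so that 3 counts corresponded to 0.0912 to 0.115 CPM (counts scaled to the size of the library). Levels below are CPM after scaling by the trimmed mean of M-values (TMM), whose factors were 0.875 to 0.961 in wild-type and 1.05 to 1.12 in *ref4-3*. Wild-type replicate 2 stood apart: it had counts on 27913 genes against 32015 to 34884 in the other libraries, and the summed level of 9 rapidly induced genes was 3964 CPM there, 902 and 1116 CPM in the other wild-type libraries and 116 to 202 CPM in *ref4-3*. Of 4 leaf markers, 3 were lower in *ref4-3*, with a summed level of 40809 to 42713 CPM in wild-type and 19389 to 25948 CPM in *ref4-3*, and none was near 0. The 4 root markers summed to 22.1 to 23.6 CPM in wild-type and 78.5 to 157.9 CPM in *ref4-3*, nearly all of it *PYK10*, and the root hair genes *LRX1*, *COBL9* and *EXPA7* were at 0.62 CPM or less in every library. Of 11 clock genes, 3 were lower and 1 higher. Of 4 senescence markers 1 was lower and 1 higher, of 4 flower markers 1 was higher, and the 4 seed markers summed to at most 4.12 CPM. The part of leaf composition, of harvest or clock state and of this library in the results below was not tested, and in whole rosettes fewer cells of a type cannot be told apart from less RNA per cell.

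In *ref4-3* rosettes, 10 of the 37 tested genes fell and none rose. At an unadjusted p under 0.05 in edgeR, 19 were lower and 1 was higher, counts that were not set against all tested genes. The exact test and DESeq2 each called 15 lower and 0 higher. Over all 23050 tested genes the exact test called 3274 lower and 2873 higher, and DESeq2 3489 and 2688. The 10 genes were *RCA*, the small subunit gene *RBCS3B*, both genes for the A subunit of the chloroplast glyceraldehyde phosphate dehydrogenase (*GAPA-1* and *GAPA-2*), 4 genes of the regeneration phase (*FBA2*, *SBPase*, *PRK* and *TIM*) and 2 genes of photorespiration (*GGT1* and the glycerate kinase gene AT1G80380). A gene was said to fall or rise at an adjusted p under 0.05 in the quasi-likelihood test of edgeR, where p-values were adjusted by Benjamini-Hochberg across the 23050 genes tested, and over all those genes 11.9% were lower and 8.52% higher. The share of lower genes was 27.0% among the 37 tested genes. All 37 were above 100 CPM over the 6 libraries, and of the 1684 protein-coding genes above that level 26.9% were lower and 7.36% higher, so the share in the pathway was close to that of abundant genes. The median log2 fold change was -0.35 in the 37 genes, -0.23 in the abundant genes and 0.01 in all tested genes, and 29 of the 37 values were negative. In 20 of the 37 genes (54.1%) every *ref4-3* library lay below every wild-type library, against 22.7% of all tested genes and 44.4% of the abundant ones. In 1 gene, *GDCH*, the 3 *ref4-3* libraries were all above wild-type, against 22.5% of all tested genes and 14.1% of the abundant ones. With the study's further threshold of a 2-fold change, *RCA* and *GAPA-2* remained lower and none was higher, against 5.24% lower and 4.48% higher over all tested genes.

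The counts moved with the scaling and with single libraries. With library totals in place of TMM, the median of all tested genes moved by 0.25 on the log2 scale, to 0.26. The calls over all tested genes then split into 1518 lower and 4387 higher (2737 and 1964 with TMM), and those among the 37 genes into 3 lower (*RCA*, *GAPA-2* and AT1G80380) and 1 higher (*GDCH*). The calls of *RBCS3B*, *PRK* and *GGT1* were also lost with RLE size factors (adjusted p = 0.0511, 0.0505 and 0.0504), and these 3 and that of *TIM* with a filter of at least 10 counts in every library. Relative to the median of all tested genes, the median of the 37 genes was -0.36 under either scaling. A change of scaling factors moves nearly all log2 fold changes alike, so this difference could hardly change and is no test of the result. The number of the 37 genes that fell was 4 without wild-type replicate 1, 4 without wild-type replicate 2, 14 without wild-type replicate 3, 6 without *ref4-3* replicate 1, 3 without *ref4-3* replicate 2 and 2 without *ref4-3* replicate 3. In each of these fits a genotype had 2 libraries. The lower genes over the whole table numbered 2504, 1949, 2910, 1757, 1028 and 588 in the same order, against 2737 with all 6 libraries. The summed share of each library's counts on the 38 genes, which uses no scaling factor, was 4.45%, 3.61% and 3.21% in wild-type replicates 1 to 3 and 3.37%, 3.29% and 2.92% in *ref4-3* replicates 1 to 3, and the genotypes overlapped.

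**Figure D1:**
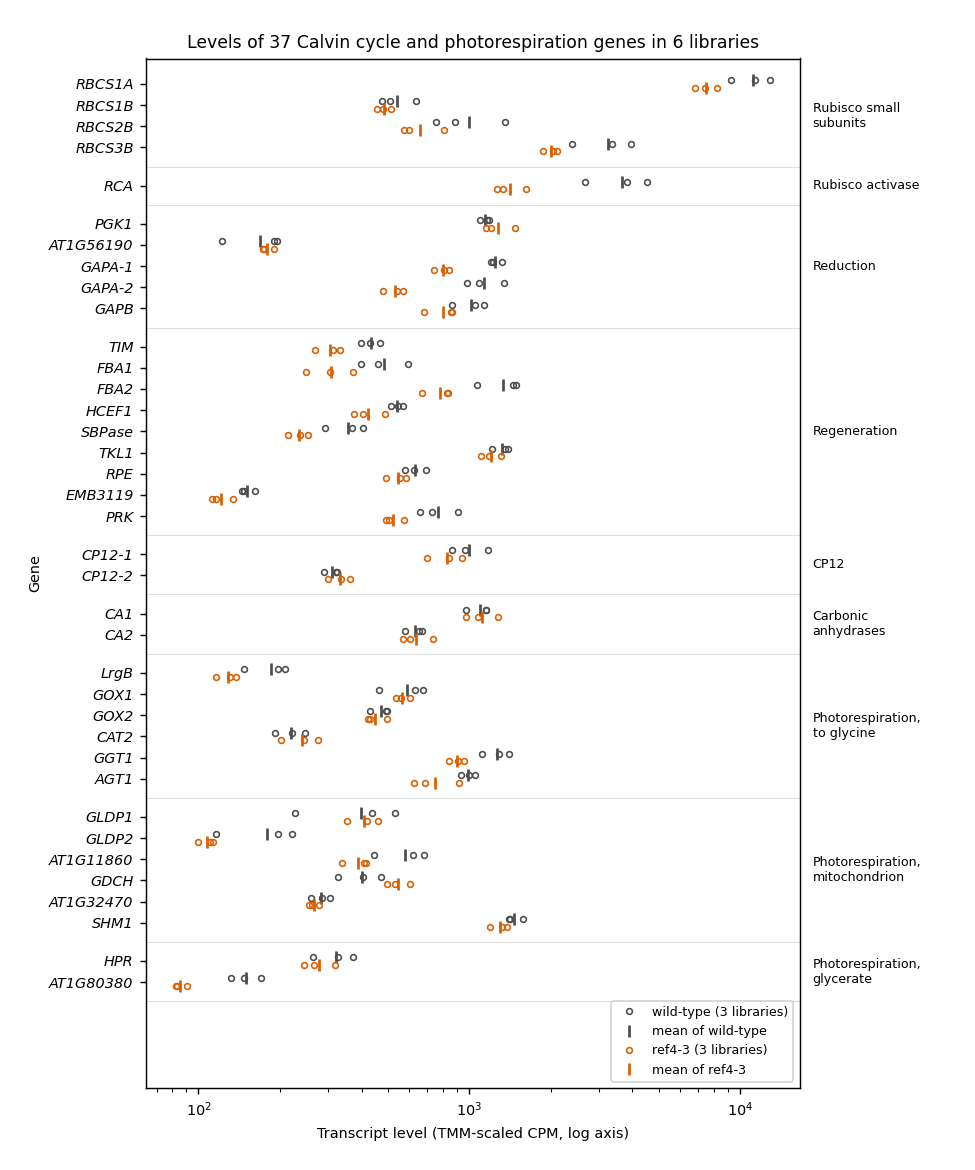
Levels of the 37 tested genes in each of the 6 libraries, as TMM-scaled CPM on a log axis, with open circles for libraries and a vertical bar for the mean of each genotype (wild-type in grey, *ref4-3* in orange). *RBCS1A* had the highest CPM of these genes, and *RCA*, *GAPA-1*, *GAPA-2* and AT1G80380 show a clear gap between the genotypes.

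Rubisco small subunits are encoded by 4 nuclear genes, of which *RBCS1B*, *RBCS2B* and *RBCS3B* lie side by side on chromosome 5, 1095 and 2264 bp apart, and *RBCS1A* lies on chromosome 1. Of the 4 genes 1 fell, *RBCS3B*, and none rose. Their messages are so alike that reads may not always be assignable to 1 gene, which is why the first 120 coding bases of each are shown, read from the TAIR10.1 genome at chr1:25049130-25049249 (*RBCS1A*), chr5:15385036-15385155 (*RBCS1B*), chr5:15381859-15381978 (*RBCS2B*) and chr5:15378187-15378306 (*RBCS3B*), all on the minus strand. Capitals mark the bases unlike *RBCS1A* at the same position.
RBCS1A: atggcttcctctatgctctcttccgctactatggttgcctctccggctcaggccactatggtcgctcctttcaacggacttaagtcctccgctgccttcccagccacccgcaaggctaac
RBCS1B: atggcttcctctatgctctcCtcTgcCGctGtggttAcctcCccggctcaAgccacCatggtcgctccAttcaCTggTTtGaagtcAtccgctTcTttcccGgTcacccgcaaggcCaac
RBCS2B: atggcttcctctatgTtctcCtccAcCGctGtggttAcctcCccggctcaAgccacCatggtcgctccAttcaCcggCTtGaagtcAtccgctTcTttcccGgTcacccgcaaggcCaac
RBCS3B: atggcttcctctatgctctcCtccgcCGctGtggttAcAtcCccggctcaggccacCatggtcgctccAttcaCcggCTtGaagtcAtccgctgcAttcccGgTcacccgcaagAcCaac
In this stretch *RBCS1B*, *RBCS2B* and *RBCS3B* differed from *RBCS1A* at 21, 21 and 19 bases. Over the whole coding sequence *RBCS1B* and *RBCS2B* were 97.3% identical, and *RBCS1B* and *RBCS3B* shared an identical run of 230 bp, longer than the 150-bp reads. *RBCS1A* was 87.7% to 90.1% identical to the other genes and shared no run above 67 bp with them. The counting of reads that fit several genes is not given in the sources used here, so values of the 3 genes on chromosome 5 are uncertain one by one.

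*RBCS1A* was the most abundant gene of the pathway also per length, with a wild-type mean of 8793 CPM per kb against 2297 for *RBCS3B*, 1068 for *RBCS2B* and 285 for *RBCS1B*. Its level was 12871, 11331 and 9246 CPM in wild-type and 8213, 7434 and 6788 CPM in *ref4-3*. All *ref4-3* libraries lay below all wild-type libraries, and the log2 fold change of -0.58 ± 0.18 (SE, n = 3 per genotype) did not pass the test (edgeR adjusted p = 0.0595). The exact test of edgeR, the test the study used, put it past the threshold, with the same direction. *RBCS3B* was at 3957, 3371 and 2388 CPM in wild-type and at 2107, 2038 and 1867 CPM in *ref4-3*. The genotypes did not overlap, and it fell by 0.69 ± 0.20 on the log2 scale (edgeR adjusted p = 0.0485), a call that held without wild-type replicate 3 and was lost without any other single library (adjusted p up to 0.154). *RBCS2B* was at 1353, 888 and 755 CPM in wild-type and at 597, 805 and 574 CPM in *ref4-3*, with *ref4-3* replicate 2 above wild-type replicate 3. Its log2 fold change was -0.60 ± 0.25 (edgeR adjusted p = 0.117). *RBCS1B* was at 634, 511 and 474 CPM in wild-type and at 479, 514 and 457 CPM in *ref4-3*, the 2 ranges overlapping. Its log2 fold change was -0.16 ± 0.15 (edgeR adjusted p = 0.449) and turned to 0.08 with library totals.

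Summed over the 3 genes of chromosome 5, the level was 5944, 4770 and 3618 CPM in wild-type and 3184, 3356 and 2898 CPM in *ref4-3*. The sum does not depend on how counted reads were split between the genes, but would lack any shared reads that were not counted. It lay lower in every *ref4-3* library and did not pass the test, with a log2 fold change of -0.60 ± 0.20 (edgeR adjusted p = 0.0717). *RBCS1B* took 3.37%, 3.18% and 3.69% of all small subunit counts in wild-type and 4.20%, 4.77% and 4.71% in *ref4-3*. Its share was higher in every *ref4-3* library, with an exact two-sided permutation p of 0.1, the smallest that 3 against 3 libraries allow (0.188 after adjustment over the 15 ratios and shares compared). The share of *RBCS1A* was 70.2% ± 1.74 (SD, n = 3) in wild-type and 70.3% ± 1.60 in *ref4-3*, with overlapping libraries. The chloroplast gene row ATCG00490, which the annotation used here does not pair with a name, was at 165 to 267 CPM in wild-type and 118 to 320 CPM in *ref4-3*, and its log2 fold change of -0.08 ± 0.38 did not pass the test (edgeR adjusted p = 0.893) in these poly(A)-selected libraries.

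Rubisco activase, which frees the active site of Rubisco from bound sugar phosphates, had the largest decrease of the 37 genes. *RCA* (chromosome 2, 16570746 to 16573692) was at 4515, 3810 and 2683 CPM in wild-type and at 1620, 1336 and 1267 CPM in *ref4-3*. The lowest wild-type library was well above the highest *ref4-3* library. *RCA* fell by 1.38 ± 0.22 on the log2 scale, to 0.384 of the wild-type level (edgeR adjusted p = 0.00854). It was past the threshold in all 17 alternatives, with log2 fold changes of -1.60 to -1.14. The ratio of small subunit CPM to *RCA* CPM was 4.17, 4.23 and 4.79 in wild-type and 7.03, 8.08 and 7.65 in *ref4-3*. This ratio does not depend on the scaling of the libraries, and it was higher in every *ref4-3* library (exact two-sided permutation p = 0.1, adjusted 0.188).

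The reduction phase turns phosphoglycerate into triose phosphate in 2 steps, by phosphoglycerate kinase and by the NADPH-dependent glyceraldehyde phosphate dehydrogenase, which is built of A and B subunits. Of its 5 genes 2 fell, both for the A subunit. *GAPA-2* was at 1339, 1083 and 983 CPM in wild-type and at 567, 542 and 480 CPM in *ref4-3*. The wild-type values were all well above the *ref4-3* values, and *GAPA-2* fell by 1.10 ± 0.16 on the log2 scale (edgeR adjusted p = 0.00674), a call that held in all 16 alternatives that test it alone. *GAPA-1* was at 1324, 1223 and 1200 CPM in wild-type and at 808, 843 and 744 CPM in *ref4-3*. The genotypes were again apart, and *GAPA-1* fell by 0.65 ± 0.13 (edgeR adjusted p = 0.0158), a call lost without *ref4-3* replicate 2 or replicate 3 (adjusted p up to 0.0747) and with library totals. The coding sequences of *GAPA-1* and *GAPA-2* were 76.7% identical with no shared run above 29 bp, so their reads can be told apart.

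*GAPB*, the gene for the B subunit, was at 865 to 1138 CPM in wild-type and 681 to 862 CPM in *ref4-3*. Every *ref4-3* library lay below, but the log2 fold change of -0.35 ± 0.16 did not pass the test (edgeR adjusted p = 0.159). The summed CPM of both A subunit genes per CPM of *GAPB* was 2.34, 2.19 and 2.52 in wild-type and 1.60, 1.62 and 1.80 in *ref4-3*, and *GAPA-1* per *GAPA-2* was 0.988, 1.13 and 1.22 in wild-type and 1.42, 1.56 and 1.55 in *ref4-3*. Both ratios differed between the genotypes without overlap (exact two-sided permutation p = 0.1 each, adjusted 0.188). The kinase genes *PGK1* and AT1G56190, whose transcripts are 86.4% identical, did not pass the test. *PGK1* was at 1164, 1093 and 1185 CPM in wild-type and at 1472, 1156 and 1204 CPM in *ref4-3* (log2 fold change 0.16 ± 0.14, edgeR adjusted p = 0.446). AT1G56190 was at 195, 190 and 122 CPM in wild-type and at 190, 175 and 173 CPM in *ref4-3* (log2 fold change 0.08 ± 0.19, edgeR adjusted p = 0.761). Both genes overlapped between the genotypes.

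**Figure D2:**
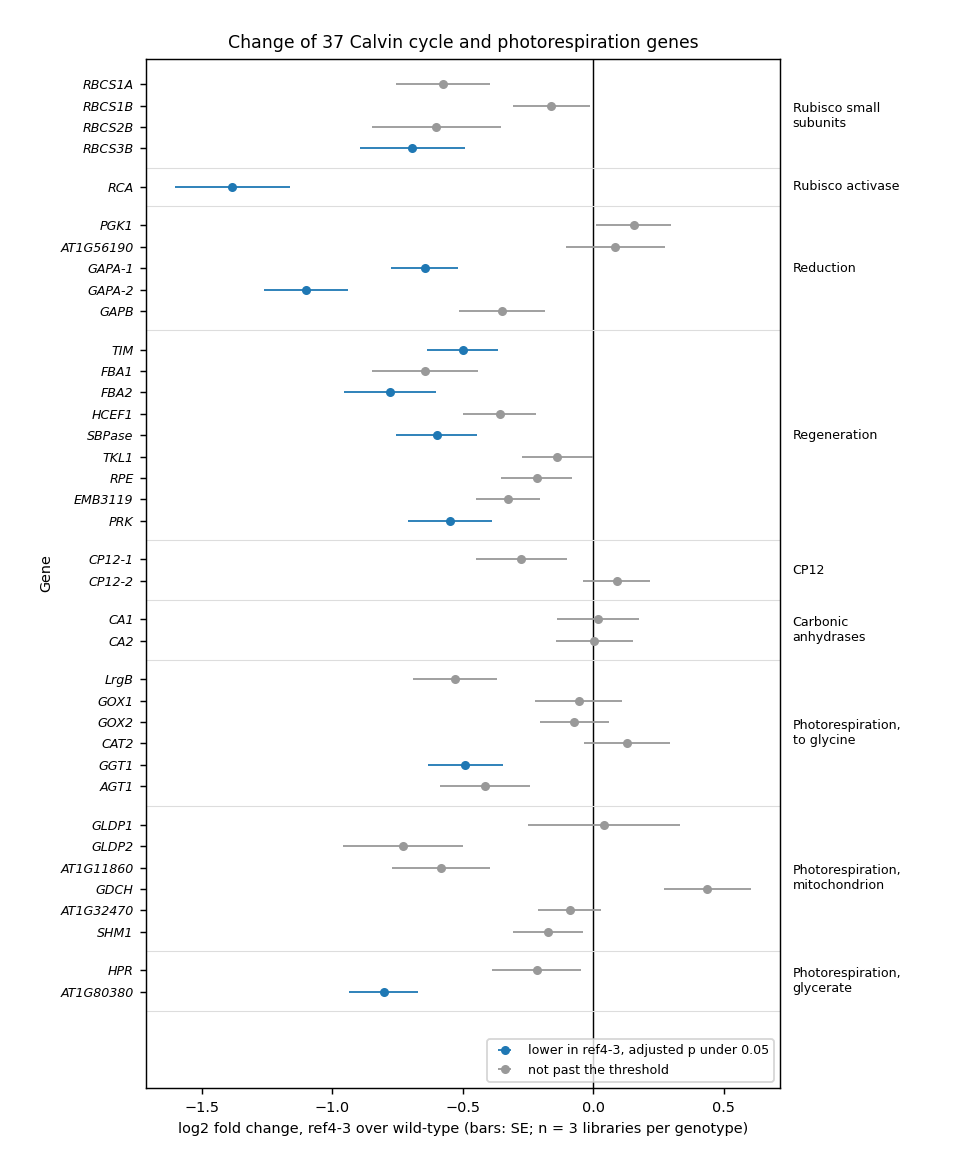
Log2 fold changes of *ref4-3* over wild-type for the 37 tested genes, ordered by pathway step, with bars for the SE (n = 3 libraries per genotype). The 10 genes in blue passed an adjusted p of 0.05 and all lie to the left of 0, from *RCA* at -1.38 to *GGT1* at -0.49, and *GDCH* has the highest value, 0.44.

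The regeneration phase rebuilds ribulose bisphosphate from triose phosphate. Of its 9 genes 4 fell and none rose, against 11.9% lower over all tested genes and 26.9% among the genes above 100 CPM. All 9 log2 fold changes were negative with TMM, and those of *TKL1* and *RPE* turned positive with library totals. In 7 genes every *ref4-3* library lay below every wild-type library, against 22.7% of all tested genes and 44.4% of the abundant ones. *FBA2*, a chloroplast fructose bisphosphate aldolase, was at 1486, 1446 and 1071 CPM in wild-type and at 828, 835 and 669 CPM in *ref4-3*. It fell by 0.78 ± 0.18 on the log2 scale (edgeR adjusted p = 0.0236). *SBPase*, sedoheptulose bisphosphatase, was at 404, 370 and 294 CPM in wild-type and at 254, 237 and 214 CPM in *ref4-3*. No library overlapped for either gene, and *SBPase* fell by 0.60 ± 0.15 (edgeR adjusted p = 0.0343). *PRK*, phosphoribulokinase, which makes the CO2 acceptor, was at 912, 730 and 660 CPM in wild-type and at 575, 507 and 492 CPM in *ref4-3*. It fell by 0.55 ± 0.16 (edgeR adjusted p = 0.0483). *TIM*, the plastid triose phosphate isomerase, was at 431, 397 and 467 CPM in wild-type and at 314, 332 and 270 CPM in *ref4-3*, and fell by 0.50 ± 0.14 (edgeR adjusted p = 0.0399). In both genes the highest *ref4-3* library was below the lowest wild-type library.

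These 4 calls were lost in fits with 1 library left out. *FBA2* passed the test without wild-type replicate 3 or *ref4-3* replicate 1 and lost its call without any 1 of the other 4 libraries (adjusted p up to 0.0951). *SBPase* and *PRK* passed only without wild-type replicate 3 (adjusted p up to 0.131 and 0.159 without another library), and *TIM* passed in none of these 6 fits (adjusted p up to 0.146). All 4 calls were also lost with library totals, where the log2 fold changes were -0.53, -0.36, -0.31 and -0.25. *FBA1*, the second chloroplast aldolase and 1 of the 2 genes with the largest change among those not called, was at 592, 458 and 399 CPM in wild-type and at 371, 306 and 250 CPM in *ref4-3*. It lay lower in every *ref4-3* library with a log2 fold change of -0.65 ± 0.20 (edgeR adjusted p = 0.0600) and passed in the exact test. The remaining genes did not pass the test: the chloroplast fructose bisphosphatase gene *HCEF1* (log2 fold change -0.36), the ribose phosphate isomerase gene *EMB3119* (-0.33), the ribulose phosphate epimerase gene *RPE* (-0.22) and the transketolase gene *TKL1* (-0.14). An antisense gene overlaps 23.7% of the span of *EMB3119*, and the strand setting of the counting is not given in the sources used here.

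CP12 proteins tie phosphoribulokinase and glyceraldehyde phosphate dehydrogenase into an inactive complex in the dark. Neither gene passed the test with edgeR, also without adjustment. *CP12-1* was at 864 to 1171 CPM in wild-type and 700.5 to 942 CPM in *ref4-3*, and *CP12-2* at 291 to 324 CPM and 301 to 362 CPM, with log2 fold changes of -0.27 ± 0.17 and 0.09 ± 0.13. The ratio of *CP12-1* to *CP12-2* was 2.66 to 4.02 in wild-type and 2.33 to 2.60 in *ref4-3*, lower in every *ref4-3* library (exact two-sided permutation p = 0.1, adjusted 0.188). The carbonic anhydrases interconvert CO2 and bicarbonate, and *CA1* and *CA2* are the abundant leaf forms. *CA1* was at 975 to 1156 CPM in wild-type and 969 to 1281 CPM in *ref4-3*, and *CA2* at 580 to 668 CPM and 567 to 736 CPM. Their log2 fold changes were 0.02 ± 0.16 and 0.01 ± 0.15 (edgeR adjusted p = 0.936 and 0.981), and their ratio, 1.73 ± 0.05 (SD, n = 3) in wild-type and 1.75 ± 0.04 in *ref4-3*, overlapped between the genotypes.

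Photorespiration starts in the chloroplast with phosphoglycolate phosphatase and continues in the peroxisome, where glycolate is oxidized to glyoxylate and then aminated to glycine. Of the 7 genes of this stretch 6 were tested and 1 fell, *GGT1*, which encodes the glutamate:glyoxylate aminotransferase. *GGT1* was at 1399, 1289 and 1113 CPM in wild-type and at 959, 909 and 839 CPM in *ref4-3*. The genotypes did not overlap, and *GGT1* fell by 0.49 ± 0.14 on the log2 scale (edgeR adjusted p = 0.0481), a call that held without wild-type replicate 3 and was lost without any other single library (adjusted p up to 0.161). Its transcript is 86.9% identical to that of *GGT2*. *AGT1*, the serine:glyoxylate aminotransferase of the same organelle, lay lower in every *ref4-3* library (626 to 917 CPM against 931 to 1045 CPM) and did not pass the test, with a log2 fold change of -0.41 ± 0.17 (edgeR adjusted p = 0.120). *LrgB* (AT1G32080), a chloroplast envelope protein of the LrgAB/CidAB family known as a transporter of glycolate and glycerate, likewise lay lower in every library without passing the test, at -0.53 ± 0.16 (edgeR adjusted p = 0.0559).

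The 2 glycolate oxidase genes lie 377 bp apart on chromosome 3 and are 90.9% identical in their coding sequence. *GOX1* was at 673, 628 and 462 CPM in wild-type and at 603, 560 and 535 CPM in *ref4-3*, and *GOX2* at 496, 494 and 428 CPM and at 430, 498 and 421 CPM. The genotypes overlapped for both genes. Their sum, which does not depend on how counted reads were split between them, had a log2 fold change of -0.06 ± 0.15 (edgeR adjusted p = 0.778), with 891 to 1169 CPM in wild-type and 956 to 1057 CPM in *ref4-3*. *CAT2*, the leaf peroxisome catalase that removes the hydrogen peroxide made by glycolate oxidase, was at 191 to 248 CPM in wild-type and 201 to 277 CPM in *ref4-3* (log2 fold change 0.13 ± 0.16). *PGLP1*, the phosphoglycolate phosphatase gene, had 3, 3 and 0 counts in wild-type and 3, 1 and 0 in *ref4-3*. Its coding sequence of 1089 bp is identical to that of the locus AT5G36790, so reads cannot be told apart there, and the sum of both loci was 4.35, 5.74 and 2.85 CPM in wild-type and 2.09 to 2.35 CPM in *ref4-3*. The sum held 61 to 165 counts per library, at most 3 of them on *PGLP1*, and would lack any shared reads that were not counted. It lay lower in every *ref4-3* library, with a log2 fold change of -0.99 ± 0.27 (edgeR adjusted p = 0.0413), and the call of AT5G36790 by itself was lost in 5 of the 6 fits with 1 library left out (adjusted p up to 0.113). The level of *PGLP1* on its own could not be measured from these counts.

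In the mitochondrion, the glycine decarboxylase complex (P, T, H and L proteins) and serine hydroxymethyltransferase turn glycine into serine. None of the 6 genes passed the test in either direction with edgeR. At an unadjusted p under 0.05, *GLDP2* and AT1G11860 were lower and *GDCH* was higher, and the exact test and DESeq2 called *GLDP2* and AT1G11860 lower. *GLDP2*, 1 of the 2 P-protein genes and the gene with the largest change among those not called, was at 197, 222 and 116 CPM in wild-type and at 113, 110 and 99.9 CPM in *ref4-3*. Wild-type replicate 3 was close to the *ref4-3* libraries, and the log2 fold change was -0.73 ± 0.23 (edgeR adjusted p = 0.0612). *GLDP1*, the other P-protein gene, was at 227 to 533 CPM in wild-type and 353 to 460 CPM in *ref4-3*, with a log2 fold change of 0.04 ± 0.29. Within each library the ratio of *GLDP1* to *GLDP2* was 2.21, 2.40 and 1.95 in wild-type and 4.07, 3.78 and 3.53 in *ref4-3*. It was higher in every *ref4-3* library (exact two-sided permutation p = 0.1, adjusted 0.188).

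The T-protein gene AT1G11860 lay lower in every *ref4-3* library (338 to 416 CPM against 444 to 679 CPM), at a log2 fold change of -0.58 ± 0.19 (edgeR adjusted p = 0.0629). *GDCH*, for an H-protein that carries the intermediate between the other subunits, was the only one of the 37 genes whose *ref4-3* libraries all exceeded the wild-type range, at 496 to 605 CPM against 328 to 472 CPM. Its log2 fold change of 0.44 ± 0.17 did not pass the test (edgeR adjusted p = 0.0994), and passed with library totals (0.68, adjusted p = 0.0265). AT1G32470, 87.6% identical to it in coding sequence, was at 260 to 305 CPM in wild-type and 256 to 280 CPM in *ref4-3*. The ratio of *GDCH* to AT1G32470 was 1.41 ± 0.14 (SD, n = 3) in wild-type and 2.04 ± 0.12 in *ref4-3* with no overlap (exact two-sided permutation p = 0.1, adjusted 0.188). *SHM1*, the serine hydroxymethyltransferase gene, was at 1401 to 1576 CPM in wild-type and 1189 to 1377 CPM in *ref4-3* (log2 fold change -0.17 ± 0.13, and 0.07 with library totals).

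Glycerate is recovered by hydroxypyruvate reductase in the peroxisome and by glycerate kinase in the chloroplast, the last enzyme of the pathway. The kinase gene AT1G80380 was at 147, 170 and 132 CPM in wild-type and at 82.6, 90.7 and 83.6 CPM in *ref4-3*. The *ref4-3* libraries lay close together and well below the wild-type range, and the gene fell by 0.80 ± 0.13 on the log2 scale (edgeR adjusted p = 0.00956). The call was lost without *ref4-3* replicate 3 (adjusted p = 0.0550) and held without any other single library. *HPR*, the reductase gene, was at 265 to 373 CPM in wild-type and 246 to 320 CPM in *ref4-3*, with overlapping libraries and a log2 fold change of -0.22 ± 0.17 (edgeR adjusted p = 0.375) that was 0.03 with library totals.

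**Figure D3:**
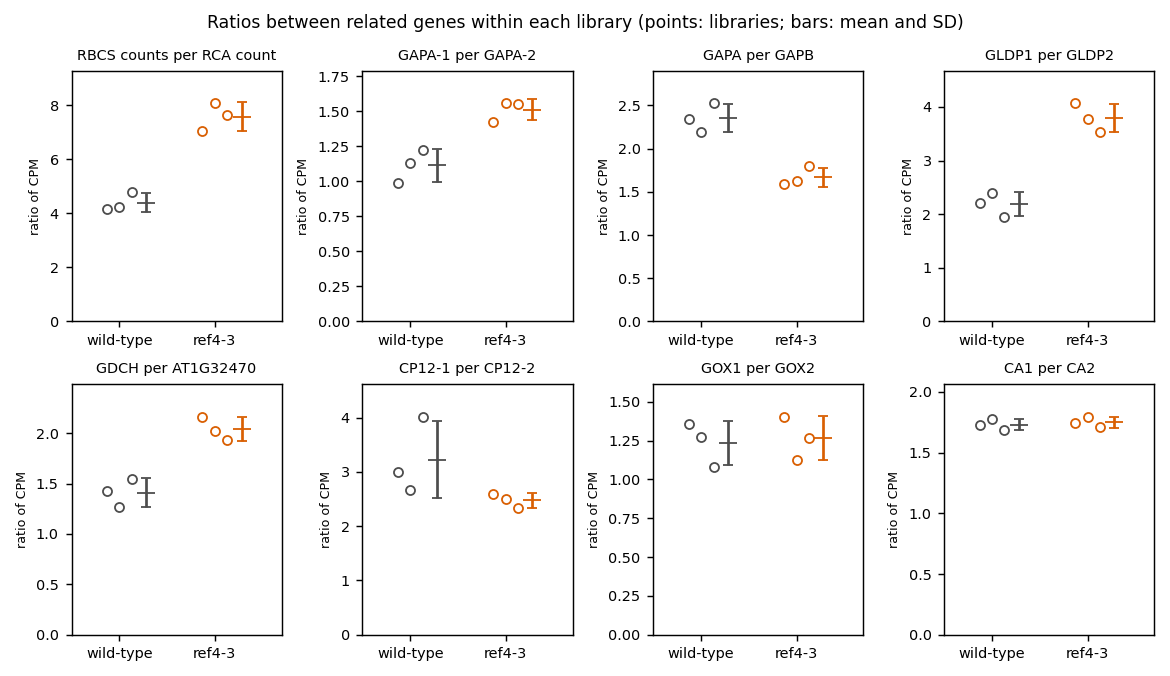
Ratios of TMM-scaled CPM between related genes within each library, in 8 panels with axes from 0. Open circles are libraries (wild-type in grey, *ref4-3* in orange), and the bars show the mean and SD of 3 libraries. The genotypes are apart in 6 panels, among them small subunit per *RCA* and *GLDP1* per *GLDP2*, and overlap for *GOX1* per *GOX2* and *CA1* per *CA2*.

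By step, the summed level in *ref4-3* relative to wild-type was 0.384 for Rubisco activase, 0.667 for the small subunits, 0.738 for the regeneration phase, 0.760 for the reduction phase, 0.770 for glycerate recovery, 0.814 for the chloroplast and peroxisome stretch of photorespiration, 0.883 for CP12, 0.911 for the mitochondrial stretch and 1.01 for the carbonic anhydrases. These are sums of TMM-scaled CPM and are led by the most abundant gene of each step. Summed over all 38 genes, the level in *ref4-3* relative to wild-type was 0.719 with TMM and 0.850 as a share of library counts. The values by step depend on the scaling as well and were not computed with library totals. The small subunits and activase held 44.4% to 50.3% of the summed CPM of the 38 genes in wild-type and 40.6% to 41.2% in *ref4-3*. Within the genotypes the libraries differed in a shared way. Wild-type replicate 1 was the highest wild-type library for 25 of the 37 genes and wild-type replicate 3 the lowest for 29, while *ref4-3* replicate 1 was the highest *ref4-3* library for 30 and *ref4-3* replicate 3 the lowest for 35. How often the libraries took this order over all tested genes was not counted, so the order is not shown to be particular to these genes.

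Other genes of the pathway, 53 in all, are the assembly partners of Rubisco, further isoforms, redox partners, cytosolic counterparts, transporters and enzymes of nitrogen recycling, and all passed the filter. Of these 15 fell (28.3%) and 4 rose (7.55%), with a median log2 fold change of -0.27. Over all tested genes 11.9% were lower and 8.52% higher, and of the genes above 100 CPM 26.9% and 7.36%. Not all of the 53 genes reach that level. The *ref4-3* libraries lay below all wild-type libraries in 27 genes (50.9%) and above them in 7 (13.2%), against 22.7% and 22.5% of all tested genes. Chloroplast and transport functions were among those that fell. *TPT*, the triose phosphate translocator that exports the cycle's product, was at 1448, 1341 and 1016 CPM in wild-type and at 741, 654 and 583 CPM in *ref4-3*. It fell by 0.94 ± 0.18 on the log2 scale (edgeR adjusted p = 0.0141). *DiT2.1*, a dicarboxylate transporter of the chloroplast envelope, fell by 0.94 ± 0.13 (edgeR adjusted p = 0.00611), from 97.7 to 123 CPM in wild-type to 55.1 to 62.9 CPM. Both lay apart between the genotypes, and the call of *TPT* was lost without *ref4-3* replicate 2 or replicate 3 (adjusted p up to 0.0663).

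Further isoforms fell as well. *TKL2*, a transketolase, was at 16.3 to 19.6 CPM in wild-type and 9.41 to 10.3 CPM in *ref4-3* and fell by 0.88 ± 0.13 (edgeR adjusted p = 0.00650), and *CP12-3*, a further CP12 gene, fell by 1.23 ± 0.32 (edgeR adjusted p = 0.0345) from 13.1 to 24.2 CPM to 5.12 to 10.2 CPM. *TRXF2*, an f-type thioredoxin that activates cycle enzymes in the light, fell by 0.64 ± 0.12 and *CAT3*, a further catalase gene, by 0.76 ± 0.18 (edgeR adjusted p = 0.0148 and 0.0284). *CAT3* was at 3540 to 5143 CPM in wild-type and 2447 to 2909 CPM in *ref4-3*, and its ratio to *CAT2* was 18.5 to 23.2 in wild-type and 9.997 to 13.3 in *ref4-3*, again without overlap. With 1 library left out, *TRXF2* lost its call without *ref4-3* replicate 2 or replicate 3 (adjusted p up to 0.0737), *CP12-3* also without wild-type replicate 3 (up to 0.123), and *CAT3* without any library other than wild-type replicate 3 and *ref4-3* replicate 1 (up to 0.104). The carbonic anhydrase genes *BCA5* and *BCA3* fell by 0.80 and 0.64, and the loci AT5G36790, AT4G22840 and AT2G35120 by 0.99, 0.83 and 0.53. The remaining 4 lower genes fell by 0.43 to 0.51.

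The 4 genes that rose were *GOX3*, *HAOX1*, *BCA6* and AT3G04550. *GOX3*, a further glycolate oxidase gene, was at 1.27, 1.04 and 1.57 CPM in wild-type and at 5.12, 4.23 and 4.62 CPM in *ref4-3*. It rose by 1.85 ± 0.22 on the log2 scale (edgeR adjusted p = 0.00402), and the genotypes did not overlap. *HAOX1*, for a hydroxyacid oxidase of the same family, was at 15.8 to 16.6 CPM in wild-type and 28.0 to 29.4 CPM in *ref4-3* (log2 fold change 0.82 ± 0.10, edgeR adjusted p = 0.00432). AT3G04550, annotated as a Rubisco accumulation factor-like protein, was at 199, 197 and 234 CPM in wild-type and at 455, 353 and 369 CPM in *ref4-3*, a rise of 0.90 ± 0.15 (edgeR adjusted p = 0.00953). *BCA6*, a further carbonic anhydrase gene, was at 63.4, 57.5 and 123 CPM in wild-type and at 142, 173 and 173 CPM in *ref4-3* (log2 fold change 1.00 ± 0.29, edgeR adjusted p = 0.0476). In all 4 genes the genotypes did not overlap, and *BCA6* kept its call only without wild-type replicate 3 among the fits with 1 library left out (adjusted p up to 0.144). Antisense genes overlap up to 16.5% of the span of AT3G04550 and 11.7% of that of *HAOX1*, and the strand setting of the counting is not given. The *HAOX1* transcript is also 91.8% identical to that of another gene of this list over 53.6% of its length.

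**Figure D4:**
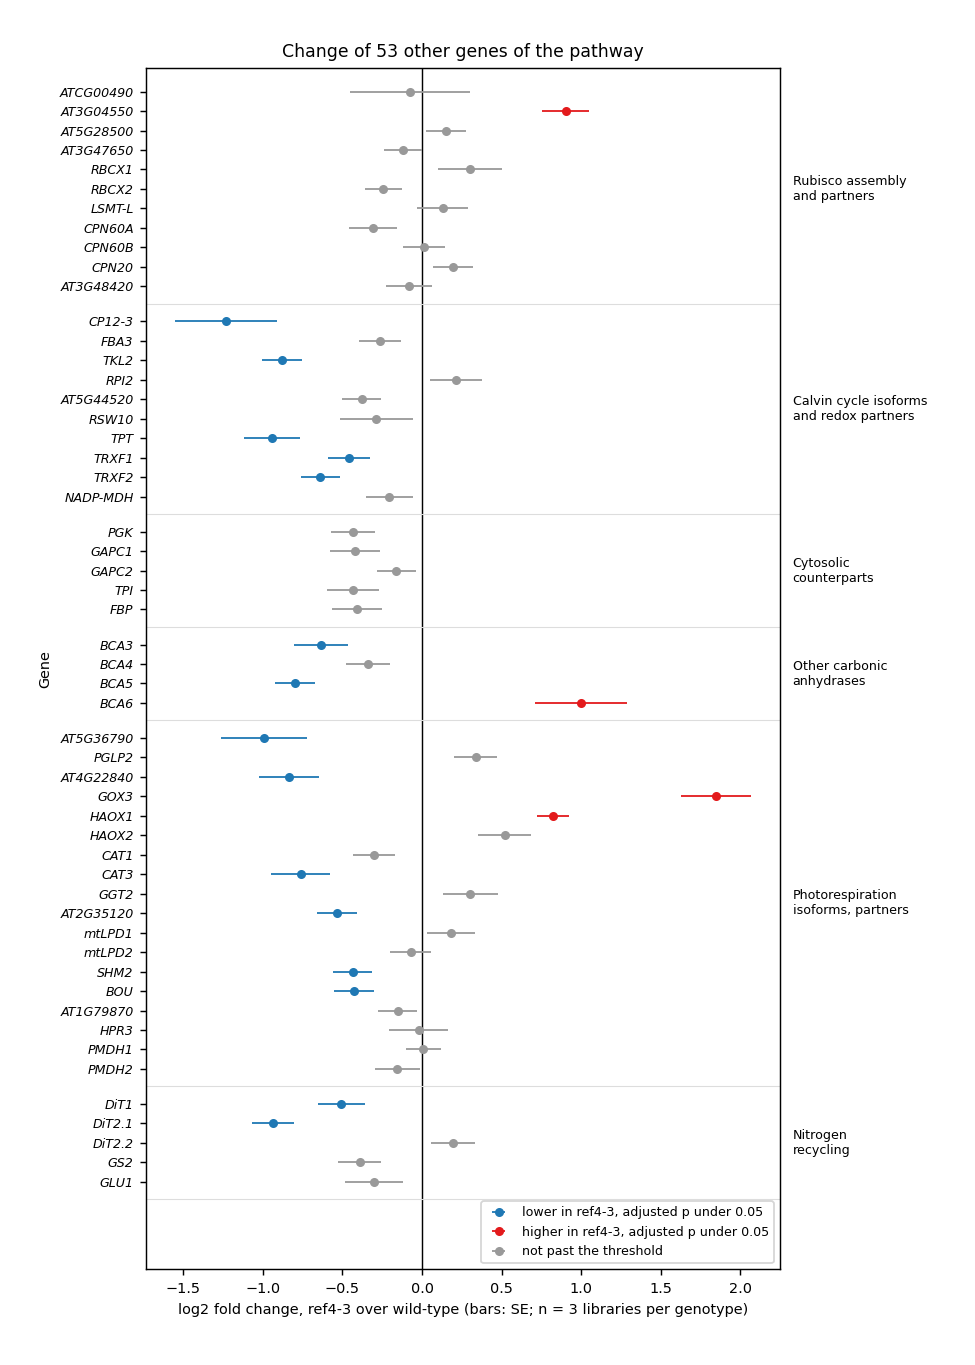
Log2 fold changes of *ref4-3* over wild-type for the 53 other genes of the pathway, in 6 groups, with bars for the SE (n = 3 libraries per genotype). The 15 genes in blue fell and the 4 in red rose, with *GOX3* at 1.85 as the highest value, and none of the 5 cytosolic counterparts passed the test.

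Group by group, 5 of 10 Calvin cycle isoforms and redox partners, 6 of 18 photorespiration isoforms and partners, 2 of 5 nitrogen recycling genes and 2 of 4 other carbonic anhydrases fell, and none of 11 Rubisco assembly genes and none of 5 cytosolic counterparts did with edgeR. At an unadjusted p under 0.05, 0 and 4 of these last 2 groups were lower, counts not set against all tested genes. At the adjusted threshold the share that fell was 11.9% over all tested genes and 26.9% among those above 100 CPM. For the cytosolic counterparts, log2 fold changes were -0.44 to -0.16. Every *ref4-3* library lay below every wild-type library in all 5 genes, against 22.7% of all tested genes and 44.4% of the abundant ones. Of the Rubisco assembly genes AT3G04550 alone rose, and the median of the 11 genes was 0.01. Between fits the number of other genes that fell was 15 with all libraries, and 7, 7, 17, 10, 3 and 2 without wild-type replicates 1 to 3 and *ref4-3* replicates 1 to 3 in turn. Over the whole table the lower genes were 2737 with all libraries, and 2504, 1949, 2910, 1757, 1028 and 588 in those fits. Of the 19 genes that passed in either direction, 5 passed in all 6 of those fits: *GOX3*, *HAOX1*, *TKL2*, *DiT2.1* and AT3G04550.

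**Figure D5:**
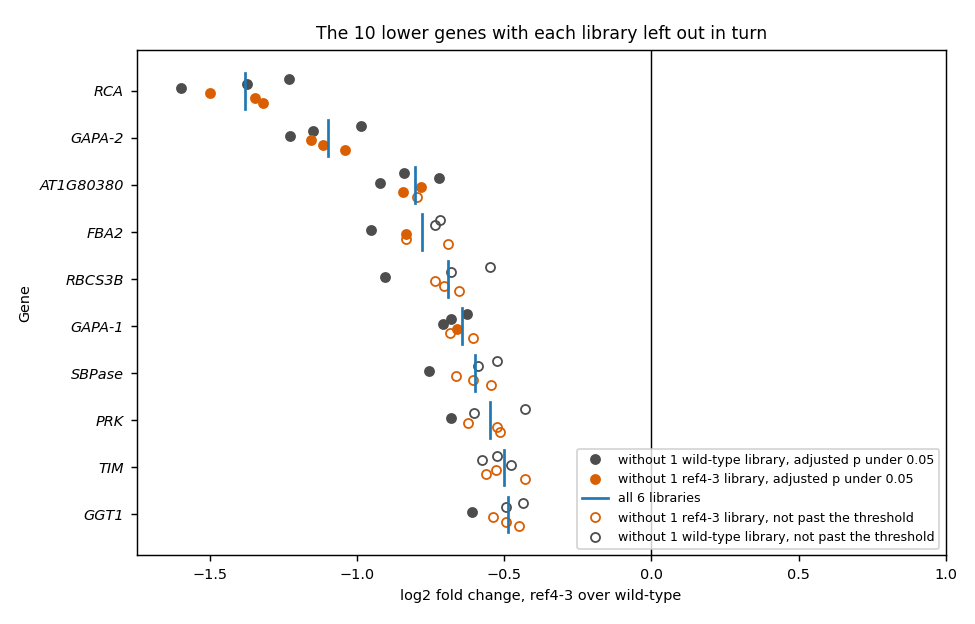
Log2 fold changes of the 10 lower genes with all 6 libraries (blue bars) and with each library left out in turn (circles, grey for a wild-type and orange for a *ref4-3* library, filled where the adjusted p was under 0.05). All values lie below 0, and *RCA* and *GAPA-2* alone stay past the threshold in all 6 fits.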

How the data were processed

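The deposited values are raw counts of reads per gene, with no normalization. Per the labels and the study's methods, the authors trimmed paired 150-bp reads of directional poly(A) libraries with fastp 0.23.2, mapped them to TAIR10 with HISAT2 2.2.1 and used SAMtools 1.17 before counting on Araport11 genes. The strand setting and the handling of multiply mapped reads are not given in the sources used here.

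Genes were kept by filterByExpr (minimum count 10, minimum total 15), scaled by TMM and compared between 3 wild-type and 3 *ref4-3* libraries by the two-sided quasi-likelihood test of edgeR 4.0.16 in R 4.3.3, with adjustment over 23050 genes. SEs came from the F statistic. Alternatives were the exact test of edgeR, DESeq2 1.42.0, RLE size factors, library totals, 2 other filters, a replicate block, each library left out, a 2-fold threshold, testing for changes beyond 1.2-fold, organelle genes left out and near-identical copies summed. Ratios were compared by exact permutation. In data simulated for this comparison with 200 of 22200 genes changed, the test recovered 31% of 2-fold and 79% of 4-fold changes, and 8.33% of calls were false. Similar transcripts were found with BLAST+ 2.17.0 (at least 85% identity over 50% of the transcript). Sequences and positions are from RefSeq TAIR10.1, and names were matched by locus with Python 3.11.15, pandas 2.3.3 and Biopython 1.88. Figures were drawn with matplotlib 3.10.9.

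The rule for the 38 genes uses no measured value, but the genes, lists and tests were chosen with earlier results of these data known. All 38 genes could be named, with values in every library for called genes, for the 2 genes not called with the largest change, and for genes with a near-identical copy. Of the other pathway genes, the 15 called ones with the largest change and ATCG00490 could be named. *PYK10*, *LRX1*, *COBL9*, *EXPA7* and *GGT2* were named after their values were seen. Floors of 3 counts cover counting error only. The p-values test the difference between the genotypes against the spread between the libraries, which the study's methods call biological replicates.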

Additional observations from a re-analysis of the deposited data

How the results depend on the processing

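The number of the 37 tested genes that fell was 10. It was 15 with the exact test of edgeR and with DESeq2, 12 with no filter beyond 1 count and 11 without organelle genes, 9 with copies summed and 7 with RLE size factors, and 3 with library totals, 6 with at least 10 counts in every library, 2 with the 2-fold threshold and 5 in the test against a fold change of 1.2. With 1 library left out it was 2 to 14. The number that rose was 0 and became 1 with library totals. The other pathway genes that fell, 15, became 6 with library totals, 1 with the 2-fold threshold and 6 in the test against a fold change of 1.2, and were 2 to 17 with 1 library left out. Those that rose, 4, became 9 with library totals and 1 with the 2-fold threshold. The 2-fold threshold and the test against a fold change lower the counts by construction. For library totals, the filter and the left-out libraries, of which wild-type replicate 3 raised the counts, the cause was not tested. No called gene changed direction in any alternative.

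Whether same-numbered libraries were paired is not stated in the sources used here. Deviations of same-numbered libraries correlated at -0.10, -0.03 and 0.21 over all tested genes, and those of differently numbered ones at -0.14 to 0.14. Among the 37 genes, replicate 1 was the highest library for 25 in wild-type and for 30 in *ref4-3*. Replicate 3 was the lowest for 29 and 35. These counts were not set against all tested genes. Shared handling by number was not tested, so the block is a fit by number alone. With the replicate block 12 of the 37 genes fell (10 without it), and 9 of the other pathway genes fell (15 without it) and 4 rose. Over the whole table the block gave 2064 lower and 1298 higher genes, against 2737 and 1964 without it. In the simulated data 31% of 2-fold and 79% of 4-fold changes were recovered, and smaller changes were not simulated. The 200 changed genes of 22200 were drawn at random over all levels, whereas the 37 genes were all above 100 CPM. In the real data 2737 genes were lower and 1964 higher of 23050. Recovery for the 37 genes was therefore not measured. A gene that did not pass the test is not shown to be the same in both genotypes.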
